A study of Homo sapiens with 16 samples.

Results

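Chromosome 7 carries EGFR on its short arm, and the regions described here are all those that the 8 deposited lists placed on this chromosome, apart from the ones assigned to EGFR itself. They numbered 3958 of 59617 regions in all lists, and 78 EGFR-assigned regions were left out. The cells were PC9, a human lung cancer line that depends on a mutant EGFR, with no gene edited, and they had received osimertinib, an inhibitor of mutant EGFR, or vehicle (DMSO). For each treatment there was 1 library for KDM1A, 1 for H3K9me3, 1 for H3K4me3 and 1 for H3K4me1. Every library is a list of regions 2000 bp wide with a signal value, and a rank below is a region's place by signal within its own list. The 6 RNA and 2 IgG samples were not analysed here, nor were replicate cultures or a DNA copy number measurement. The libraries therefore have no replicate check, no test between treatments was made, and the 95% Clopper-Pearson intervals given cover counting error only. Read depth is unknown. Positions are in Mb of GRCh38.

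KDM1A, also called LSD1, is an enzyme that removes methyl groups from lysine 4 of histone H3 and acts in repressor complexes at enhancers and promoters. H3K9me3 marks silent chromatin, and is dense beside centromeres and over clusters of KRAB zinc finger genes. H3K4me3 marks active gene starts, which mostly lie in CpG-rich DNA, and H3K4me1 marks enhancers. In tumour cells a segment of extra DNA copies can add regions of any target over a stretch with sharp ends, which is why the shape of KDM1A and H3K9me3 along the chromosome is set here against that of the H3K4 marks.

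The promoter sequences that follow are 300-base RefSeq windows (GRCh38.p14), each running from before a gene start to shortly after it and given 5′ to 3′ on the gene's own strand, with every CG pair in capitals. They are examples of the DNA under the lists, and do not show how the lists differ. Each is the window lying whole inside the strongest chromosome 7 region that held one. For KDM1A these were BET1 with osimertinib (chr7:94004306-94004605, minus strand), whose product works in transport between the endoplasmic reticulum and the Golgi, and PTTG1IP2 with vehicle (chr7:90469389-90469688, plus strand). For H3K9me3 they were SUMF2 with osimertinib (chr7:56064036-56064335, plus strand), a relative of the sulfatase-modifying enzyme, and LOC105375289 with vehicle (chr7:56668009-56668308, plus strand). For the H3K4 marks the windows with osimertinib are shown, TNRC18 for H3K4me3 (chr7:5423785-5424084, minus strand) and TNS3, which codes for the adhesion protein tensin 3, for H3K4me1 (chr7:47582062-47582361, minus strand).
BET1: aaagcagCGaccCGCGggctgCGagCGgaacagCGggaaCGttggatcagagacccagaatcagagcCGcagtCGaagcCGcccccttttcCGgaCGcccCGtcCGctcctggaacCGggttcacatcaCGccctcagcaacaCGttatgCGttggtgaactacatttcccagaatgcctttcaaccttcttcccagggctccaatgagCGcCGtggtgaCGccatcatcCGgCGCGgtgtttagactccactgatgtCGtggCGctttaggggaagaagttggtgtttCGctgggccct
PTTG1IP2: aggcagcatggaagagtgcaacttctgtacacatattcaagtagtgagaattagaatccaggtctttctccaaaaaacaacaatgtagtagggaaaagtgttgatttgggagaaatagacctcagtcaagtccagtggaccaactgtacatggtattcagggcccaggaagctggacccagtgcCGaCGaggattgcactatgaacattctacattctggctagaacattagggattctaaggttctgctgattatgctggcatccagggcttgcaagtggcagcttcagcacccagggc
SUMF2: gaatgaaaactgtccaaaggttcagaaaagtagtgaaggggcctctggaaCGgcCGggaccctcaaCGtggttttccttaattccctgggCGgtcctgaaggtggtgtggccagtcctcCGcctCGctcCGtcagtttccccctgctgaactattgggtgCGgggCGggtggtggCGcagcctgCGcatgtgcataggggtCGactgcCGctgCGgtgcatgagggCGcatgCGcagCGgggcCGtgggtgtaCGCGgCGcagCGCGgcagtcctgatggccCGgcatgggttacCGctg
LOC105375289: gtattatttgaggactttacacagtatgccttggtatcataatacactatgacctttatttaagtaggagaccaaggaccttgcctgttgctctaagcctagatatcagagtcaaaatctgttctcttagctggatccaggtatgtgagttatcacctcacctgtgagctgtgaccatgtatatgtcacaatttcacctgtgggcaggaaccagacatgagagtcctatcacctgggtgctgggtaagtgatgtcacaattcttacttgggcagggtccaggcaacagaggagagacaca
TNRC18: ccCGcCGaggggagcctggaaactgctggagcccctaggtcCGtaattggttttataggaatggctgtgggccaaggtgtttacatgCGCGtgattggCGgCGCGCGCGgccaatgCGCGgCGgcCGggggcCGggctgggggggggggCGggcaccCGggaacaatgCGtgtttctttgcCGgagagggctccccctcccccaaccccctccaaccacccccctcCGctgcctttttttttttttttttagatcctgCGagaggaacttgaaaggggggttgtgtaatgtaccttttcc
TNS3: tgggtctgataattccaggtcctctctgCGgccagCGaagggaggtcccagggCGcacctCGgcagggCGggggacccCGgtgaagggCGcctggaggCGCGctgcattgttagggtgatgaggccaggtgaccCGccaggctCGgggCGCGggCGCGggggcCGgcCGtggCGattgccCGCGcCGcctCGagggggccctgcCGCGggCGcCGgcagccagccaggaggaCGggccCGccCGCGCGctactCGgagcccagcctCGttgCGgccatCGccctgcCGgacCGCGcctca

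These windows held 27 CG pairs for BET1, 2 for PTTG1IP2, 25 for SUMF2, 0 for LOC105375289, 21 for TNRC18 and 38 for TNS3. CG is its own reverse complement, so both strands give the same count, and 95.6% of the 1777 chromosome 7 windows held at least 1, with a median of 14. H3K4me3 regions held 307 whole windows with osimertinib and 376 with vehicle, with medians of 29 CG pairs with osimertinib and 29.5 with vehicle. The windows outside those regions had medians of 9 with osimertinib and 8 with vehicle. KDM1A regions held 10 windows with osimertinib and 5 with vehicle, with medians of 1.5 with osimertinib and 3 with vehicle, so BET1 with its 27 was far above the usual KDM1A window. H3K9me3 regions held 16 windows with osimertinib, median 11.5, and 10 with vehicle, median 2.5.

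Chromosome 7 held a larger share of the KDM1A and H3K9me3 lists than of the H3K4 lists. With osimertinib, 998 of 8882 KDM1A regions lay there, 11.2% (10.6 to 11.9), and with vehicle 441 of 4731, 9.32% (8.51 to 10.2). H3K9me3 had 245 of 2073 with osimertinib, 11.8% (10.5 to 13.3), and 317 of 2749 with vehicle, 11.5% (10.4 to 12.8). The H3K4me3 shares were 5.16% with osimertinib and 5.05% with vehicle. The H3K4me1 shares were 4.59% with osimertinib and 3.95% with vehicle. No interval of KDM1A or H3K9me3 met one of an H3K4 mark. By number of regions, chromosome 7 was place 3 among the chromosomes for KDM1A with osimertinib and place 5 with vehicle, and place 2 with osimertinib and place 3 with vehicle for H3K9me3. It was place 8 for both H3K4me3 lists, and place 8 with osimertinib and 13 with vehicle for H3K4me1. Members were of middling strength, with a median signal percentile within their list of 46.1 with osimertinib and 55.8 with vehicle for KDM1A. For H3K9me3 it was 43.1 with osimertinib and 49.9 with vehicle.

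**Figure D1:**
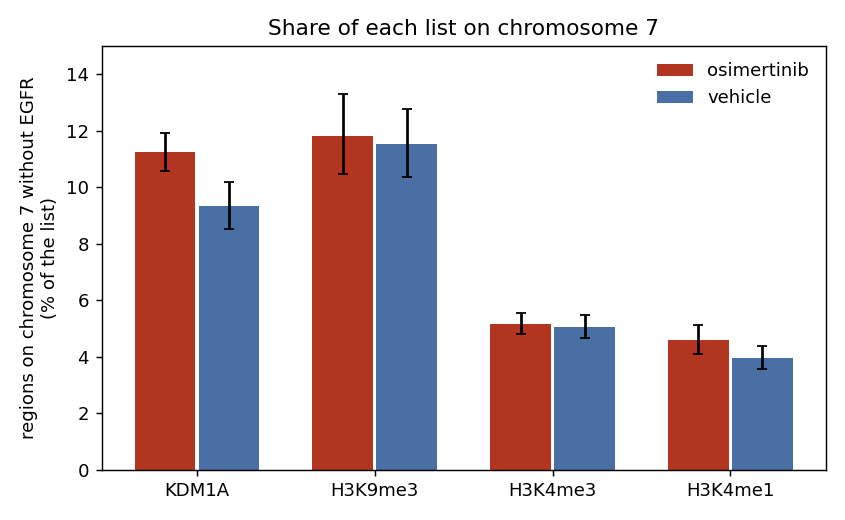
Bars give the percentage of each list's regions on chromosome 7 without EGFR, with 95% exact intervals as error bars, for 4 targets and 2 treatments (1 library each). KDM1A and H3K9me3 lie between 9.32% and 11.8%, and the H3K4 marks between 3.95% and 5.16%.

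KDM1A and H3K9me3 stood on opposite sides of EGFR. Within 5 Mb of the span of EGFR-assigned regions (chr7:54976507-55139349) lay 205 of the KDM1A members with osimertinib, 20.5% (18.1 to 23.2), and 61 with vehicle, 13.8% (10.7 to 17.4). Of these, 176 with osimertinib and 50 with vehicle were on the side of the short arm tip, while 29 with osimertinib and 11 with vehicle were on the side of the centromere. For H3K9me3 the same flanks held 116 members with osimertinib, 47.3% (41.0 to 53.8), and 141 with vehicle, 44.5% (38.9 to 50.1). Here 3 with osimertinib and 13 with vehicle were on the side of the tip, while 113 with osimertinib and 128 with vehicle were on the side of the centromere. H3K4me3 had 3.07% of its members in these flanks with osimertinib and 4.09% with vehicle. For H3K4me1 it was 6.69% with osimertinib and 5.96% with vehicle. The contrast between KDM1A and H3K4me1 depended on the flank: within 10 Mb H3K4me1 had 26.4% with osimertinib and 26.7% with vehicle, and KDM1A 26.5% with osimertinib and 20.6% with vehicle. With EGFR-assigned regions included, H3K4me1 had 15.96% with osimertinib and 10.4% with vehicle within 5 Mb. No member of any list lay inside the EGFR span.

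In bins of 5 Mb the KDM1A profile had 2 bins among the 20 fullest of the genome under each treatment, set on a low and wide floor, and 1 of them was the same. The bin at 50 to 55 Mb held 175 regions with osimertinib and 49 with vehicle, which was place 11 with osimertinib and place 9 with vehicle among 601 bins of the genome. The bin at 90 to 95 Mb held 112 with osimertinib, place 14, and 21 with vehicle, place 40. The bin at 65 to 70 Mb held 72 with osimertinib, place 22, and 35 with vehicle, place 13. KDM1A had at least 1 region in all 32 bins under both treatments, so it was present along the whole chromosome. H3K9me3 had its members in few places. Its bin at 55 to 60 Mb held 113 with osimertinib and 128 with vehicle, place 4 of 601 in both lists, and the bin at 60 to 65 Mb held 80 with osimertinib and 74 with vehicle. Regions were found in 18 of 32 bins with osimertinib and 23 with vehicle.

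The H3K4 marks peaked elsewhere. H3K4me3 had 88 regions with osimertinib and 55 with vehicle at 5 to 10 Mb, around ACTB and TNRC18, and 84 with osimertinib and 69 with vehicle at 100 to 105 Mb. H3K4me1 had 57 with osimertinib and 60 with vehicle at 45 to 50 Mb, and TNS3, which lies there, was assigned 29 with osimertinib and 37 with vehicle. Its next bin with osimertinib, at 130 to 135 Mb, held 47 regions against 33 with vehicle. LINC-PINT, a long non-coding RNA gene in that bin, was assigned 20 with osimertinib and 12 with vehicle.

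**Figure D2:**
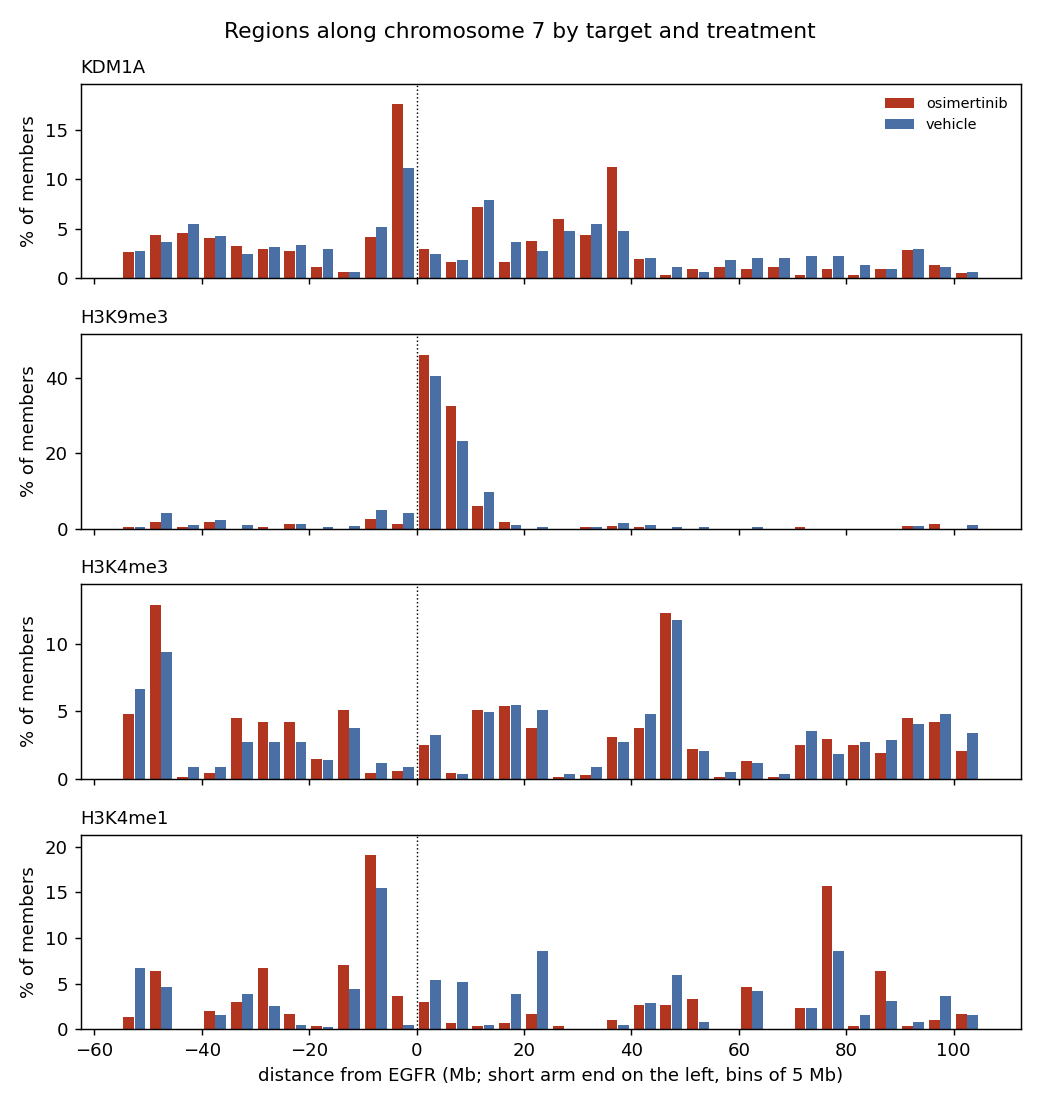
Each panel gives, for 1 target, the percentage of its chromosome 7 members in bins of 5 Mb, against the distance in Mb from the middle of the EGFR span (dotted line), with a bar for each treatment. KDM1A is highest in the bin just before EGFR (17.5% with osimertinib, 11.1% with vehicle), and H3K9me3 in the bin just after it (46.1% with osimertinib, 40.4% with vehicle).

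To place edges, the stretch of at least 5 Mb was sought, on a 1 Mb grid, in which a target's regions were most in excess over the H3K4me3 and H3K4me1 regions of the same treatment. For KDM1A with osimertinib it ran over 48 to 98 Mb and held 60.7% of the KDM1A members and 18.7% of the H3K4 members, a log2 odds ratio of 2.75 (2.56 to 2.94). With vehicle it ran over 8 to 98 Mb and held 76.4% of the KDM1A members and 45.5% of the H3K4 members, a log2 odds ratio of 1.95 (1.63 to 2.29). The far end, at 98 Mb, was thus the same under both treatments, while the near end was not. Set against chromosome length in place of H3K4 regions, both treatments gave 3 to 97 Mb, with log2 odds ratios of 2.38 for osimertinib and 1.41 for vehicle. The far end stayed within 95 to 98 Mb under every alternative tried for KDM1A, whereas the near end moved between 3 and 78 Mb. With the stretches at 52 to 55 Mb and 92 to 95 Mb left out, an alternative added after seeing the data, it ran over 78 to 98 Mb with osimertinib and 78 to 97 Mb with vehicle. These stretches were picked for their excess, so the ratios describe them and are no test. The intervals of the ratios take the H3K4 share as fixed and leave out its counting error.

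For H3K9me3 the stretch was short and next to the centromere. With osimertinib it was 56 to 65 Mb and held 78.0% of the H3K9me3 members and 1.73% of the H3K4 members, a log2 odds ratio of 7.65 (7.21 to 8.12). Those H3K4 members were 17 regions, whose counting error this interval leaves out, so it is too narrow. With vehicle the stretch was 48 to 72 Mb, with a log2 odds ratio of 5.06. No H3K9me3 edge coincided with the far edge of KDM1A near 98 Mb. The near edge of H3K9me3 with vehicle, 48 Mb, was that of KDM1A with osimertinib. Within a treatment the near edges differed. They were 48 Mb for KDM1A and 56 Mb for H3K9me3 with osimertinib, and 8 Mb for KDM1A and 48 Mb for H3K9me3 with vehicle. Between 55 and 72 Mb lay 86.5% of the H3K9me3 members with osimertinib and 74.4% with vehicle. The same stretch held 13.2% of the KDM1A members with osimertinib and 14.7% with vehicle.

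Bounds taken from these edges and from the place of EGFR divide the chromosome into 6 stretches. In the first 3 Mb KDM1A had 0.667 regions per Mb with osimertinib and 1.33 with vehicle. From 3 to 48 Mb it had 6.13 with osimertinib and 2.82 with vehicle. From 48 to 55 Mb, up to EGFR, it had 28.7 with osimertinib and 9.71 with vehicle, the highest of the 6 under both treatments. The next stretch, from 55 to 72 Mb, had 7.76 with osimertinib and 3.82 with vehicle, and that from 72 to 97 Mb had 10.8 with osimertinib and 3.56 with vehicle. Beyond 97 Mb there were 1.86 with osimertinib and 1.41 with vehicle, so the long arm's outer part was poor in KDM1A in both lists. H3K4me3 did not follow this. From 72 to 97 Mb it had 3.52 regions per Mb with osimertinib and 3.40 with vehicle, and beyond 97 Mb it had 4.43 with osimertinib and 4.14 with vehicle. Coding genes in RefSeq numbered 13.3 per Mb in the first 3 Mb, 5.04 from 3 to 48 Mb, 2.14 from 48 to 55 Mb, 3.53 from 55 to 72 Mb, 5.64 from 72 to 97 Mb and 7.30 beyond 97 Mb. KDM1A was densest where genes were fewest, but the order did not hold throughout: with osimertinib it was denser from 72 to 97 Mb than from 3 to 48 or 55 to 72 Mb, which have fewer genes per Mb. The part of gene density in the KDM1A shape was not tested, and neither was that of DNA copies.

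**Figure D3:**
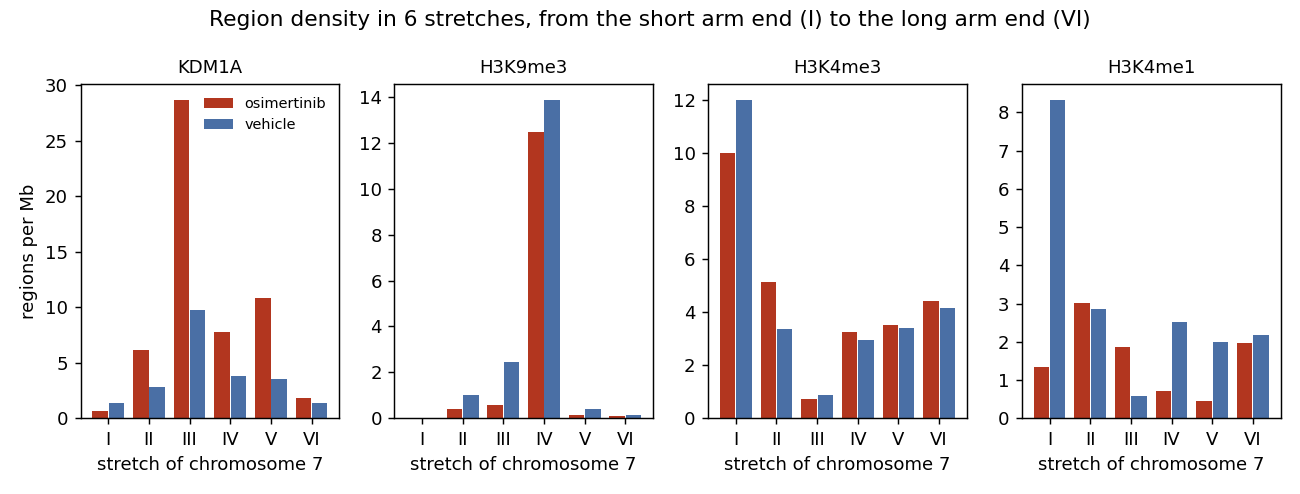
Regions per Mb for each target in 6 stretches of chromosome 7, bounded at 3, 48, 55, 72 and 97 Mb, with osimertinib left of vehicle. KDM1A is densest in stretch III, just before EGFR (28.7 with osimertinib, 9.71 with vehicle), H3K9me3 in stretch IV, around the centromere (12.5 with osimertinib, 13.9 with vehicle), and H3K4me3 in stretch I.

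The treatments also differed by stretch. Over all of chromosome 7 there were 2.26 times as many KDM1A regions with osimertinib as with vehicle (2.02 to 2.54), against 1.88 times over the whole lists. The ratio was 2.96 (2.23 to 3.95) from 48 to 55 Mb and 3.04 (2.39 to 3.91) from 72 to 97 Mb. Beyond 97 Mb it was 1.32 (0.991 to 1.76). Bounds at 48 and 97 Mb came from the same KDM1A counts, that at 48 Mb from the osimertinib list alone, so these ratios and intervals describe the stretches and are no test of a difference between them. H3K4me1 varied in both directions. From 48 to 55 Mb it had 13 regions with osimertinib and 4 with vehicle, a ratio of 3.25 (1.00 to 13.7), in the same direction as KDM1A. It had 4 regions with osimertinib and 25 with vehicle in the first 3 Mb, a ratio of 0.16. From 72 to 97 Mb it had 11 with osimertinib and 50 with vehicle, a ratio of 0.22, against 0.667 over the whole lists. H3K4me3 had 1.52 times as many regions with osimertinib as with vehicle (1.23 to 1.88) from 3 to 48 Mb, against 1.14 over the whole lists. Its ratios in the other 5 stretches were between 0.833 and 1.10. H3K9me3 had an osimertinib to vehicle ratio of 0.754 over the whole lists. It was 0.413 (0.229 to 0.719) from 3 to 48 Mb and 0.898 (0.743 to 1.09) from 55 to 72 Mb. From 48 to 55 Mb H3K9me3 had 4 regions with osimertinib and 17 with vehicle, a ratio of 0.235 (0.0576 to 0.721). That is the opposite direction to KDM1A and H3K4me1 there. With vehicle the H3K9me3 stretch found above ran from 48 to 72 Mb. Bounds at these places thus also follow H3K9me3 counts, and the H3K9me3 ratios are no test either.

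The same bound at 97 Mb was applied to windows where the H3K4 marks were missing altogether. Since it was taken from these KDM1A counts, the means on either side describe the shape and add no support to it. Chromosome 7 had 47 windows of 1 Mb with a region of some list but none of H3K4me3 or H3K4me1. In the 30 before 97 Mb KDM1A averaged 13.0 regions with osimertinib and 5.73 with vehicle. In the 17 beyond 97 Mb it averaged 2.94 with osimertinib and 2.00 with vehicle. The same kind of window on other chromosomes, without chromosome Y and the first 50 Mb of chromosome 5, averaged 3.23 with osimertinib and 2.14 with vehicle over 619 windows. The mean beyond 97 Mb was thus close to that of the other chromosomes, and the mean before it was above them. The ratio of the means was 4.43 with osimertinib and 2.87 with vehicle. In windows chosen by RefSeq coding genes in place of H3K4 regions, this ratio depended on how a window was called free of genes. With no gene start or end in the window, 8 windows lay before 97 Mb and 5 beyond, and the ratio was 2 with osimertinib and 1.82 with vehicle. With no part of a gene in it, 8 lay before and 4 beyond, and the ratio was 8 with osimertinib and 4 with vehicle. The definitions differed by 1 window, that at 147 Mb, which lies inside CNTNAP2 and held 20 regions with osimertinib and 7 with vehicle. The second was added after the result of the first had been seen, so the size of the step in windows without coding genes depends on that 1 window, while its direction was the same with and without it. The first 50 Mb of chromosome 5 averaged 55.1 with osimertinib and 16.6 with vehicle over 20 windows, and chromosome 7 was place 2 of 23 chromosomes behind chromosome 5 under both treatments. Chromosome 7 as a whole averaged 9.38 with osimertinib and 4.38 with vehicle. Chromosome 20, in place 3, averaged 7.5 with osimertinib and 4.25 with vehicle. Chromosomes 1, 3 and 11 averaged 6.95 to 7.12 with osimertinib and 3.18 to 3.78 with vehicle. A mean above 3.23 with osimertinib and 2.14 with vehicle was thus not particular to chromosome 7.

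Among these windows the split with the best fit to 2 levels fell between the windows starting at 85 and 86 Mb with osimertinib, with means of 14.0 before and 3.20 after. With vehicle it fell between those at 86 and 89 Mb, with means of 6.07 and 1.89. Both splits lie before the edge found against the H3K4 marks, and no such window lay between those starting at 95 and 109 Mb. Single windows did not all follow the step. The window at 147 Mb was high for its place, and the window at 63 Mb, near the centromere, held 0 with osimertinib and 2 with vehicle.

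**Figure D4:**
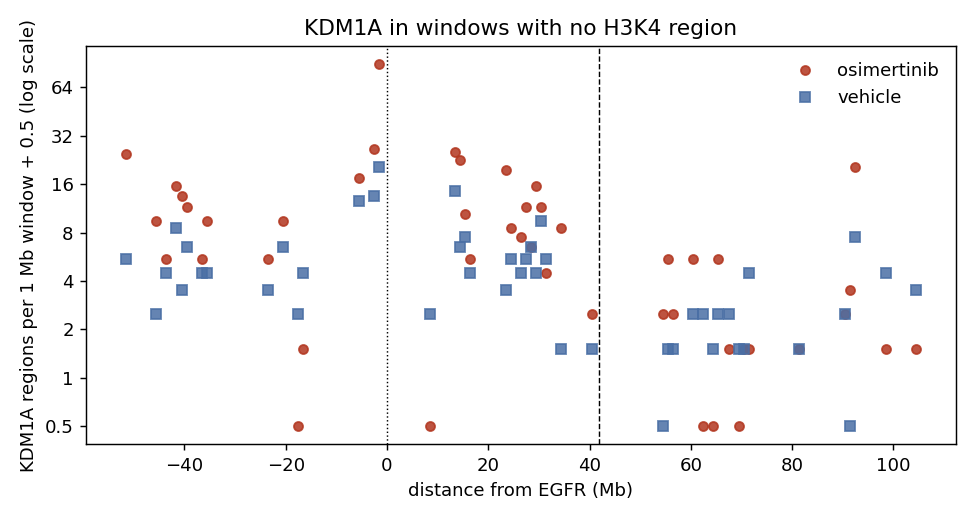
Each point is the number of KDM1A regions, plus 0.5, in a 1 Mb window with no H3K4me3 or H3K4me1 region, on a log axis, against the distance in Mb from EGFR (dotted line), with osimertinib as circles and vehicle as squares. The dashed line is at 97 Mb: the 30 windows before it average 13.0 with osimertinib and 5.73 with vehicle, and the 17 after it 2.94 with osimertinib and 2.00 with vehicle.

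At a resolution of 0.1 Mb the crowding in the 2 fullest KDM1A bins of the osimertinib list came down to 2 blocks. They were picked for their excess in that list, so counts against their flanks or against vehicle describe the blocks and are no test. The one next to EGFR spanned 53.2 to 54.5 Mb and held 120 KDM1A regions with osimertinib, 92.3 per Mb, and 27 with vehicle, 20.8 per Mb. The equal length before it held 31 with osimertinib and 15 with vehicle, and the equal length after it, where EGFR lies, 16 with osimertinib and 4 with vehicle. No H3K4me3 or H3K4me1 region of either treatment and no RefSeq coding gene lay in this block. Its KDM1A regions were strong, with a median signal percentile of 77.5 with osimertinib and 73.6 with vehicle. The length before it had 38.2 with osimertinib and 72.3 with vehicle, and the length after it 57.5 with osimertinib and 49.2 with vehicle. With vehicle, strength thus hardly set the block apart from the length before it. The authors' annotation gave 17 regions with osimertinib to the non-coding gene LINC02854, 16 to the pseudogene RNU2-29P and 13 to RN7SKP218. With vehicle RNU2-29P had 5 and LINC01445 had 4. Sought in the vehicle list alone, the block ran over 52 to 54.5 Mb with 42 regions, so the end nearer to EGFR was at the same place.

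The long arm block, at 92.6 to 94.8 Mb, held 92 KDM1A regions with osimertinib and 13 with vehicle. The equal lengths before and after it held 16 and 19 with osimertinib, and 8 and 6 with vehicle. Unlike the other block it had 14 RefSeq coding genes and H3K4me3 regions, 13 with osimertinib and 6 with vehicle. CASD1, which codes for a sialic acid O-acetyltransferase, held 9 KDM1A regions with osimertinib and 1 with vehicle within its body. CDK6, a cyclin-dependent kinase of G1, and CALCR, the calcitonin receptor, held 7 each with osimertinib and 0 with vehicle. SGCE, a sarcoglycan, held 4 with osimertinib and 0 with vehicle, and BET1, whose promoter is shown above, 3 with osimertinib and 1 with vehicle. The bodies of CASD1 and SGCE overlap, and a region in the shared part was counted for both. SAMD9, SAMD9L, TFPI2, GNGT1, GNG11 and PEG10 held none in either list. In the vehicle list alone the same search found no block here and stopped at 85.2 to 85.8 Mb, with 8 regions.

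**Figure D5:**
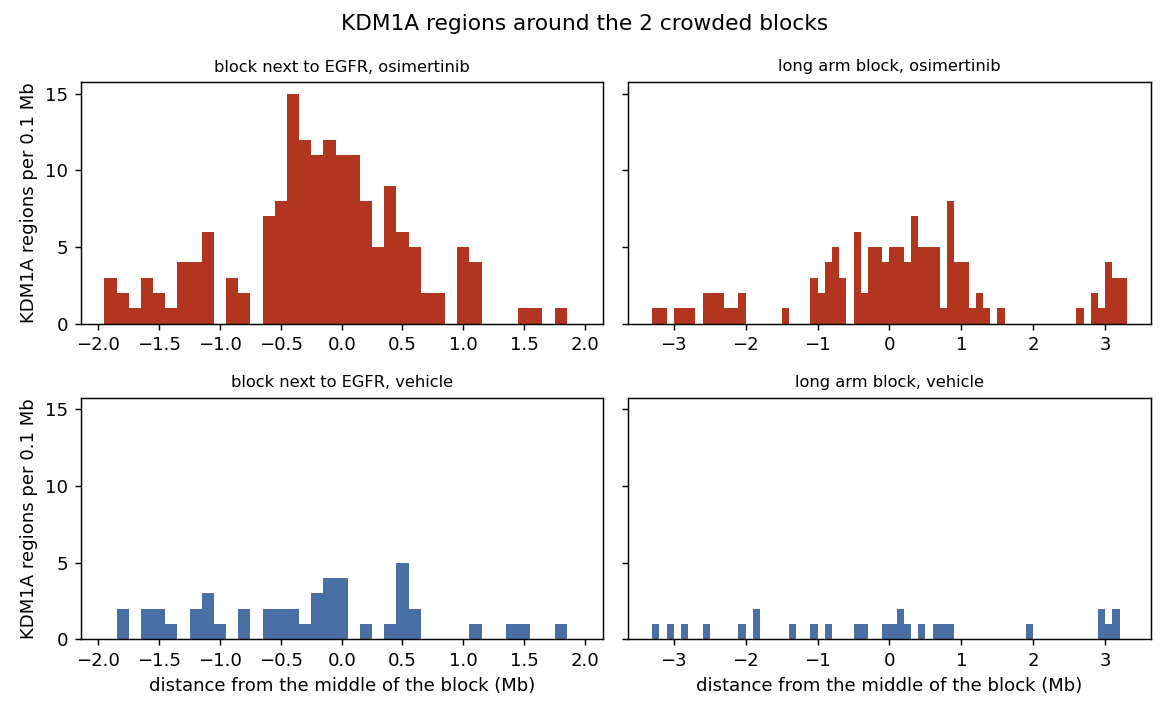
KDM1A regions per 0.1 Mb, against the distance in Mb from the middle of each block, with the block next to EGFR on the left, the long arm block on the right, osimertinib above and vehicle below. Both blocks were picked for their excess over their surroundings with osimertinib (120 regions in the block next to EGFR and 92 in the long arm block). With vehicle they hold 27 and 13.

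Outside the blocks, the coding genes with most of them within their body were CNTNAP2, with 25 regions under osimertinib and 8 under vehicle over 2304 kb, and SDK1, with 21 under osimertinib and 7 under vehicle over 968 kb. MAGI2 had 23 under osimertinib and 4 under vehicle over 1437 kb, and AUTS2 had 13 under osimertinib and 8 under vehicle over 1195 kb. DGKB had 12 under osimertinib and 3 under vehicle over 830 kb. CNTNAP2 and SDK1 code for cell adhesion proteins of neurons, MAGI2 for a synaptic scaffold and DGKB for a lipid kinase. None of these 5 held an H3K4me3 or H3K4me1 region in any list. Per Mb of gene, KDM1A regions numbered 10.8 with osimertinib and 3.47 with vehicle for CNTNAP2, 21.7 with osimertinib and 7.23 with vehicle for SDK1, and 16.01 with osimertinib and 2.78 with vehicle for MAGI2. For AUTS2 they were 10.9 with osimertinib and 6.69 with vehicle, and for DGKB 14.5 with osimertinib and 3.62 with vehicle. All of chromosome 7 had 6.26 per Mb with osimertinib and 2.77 with vehicle. A longer gene holds more regions by its length alone, and these genes were singled out after their counts were seen.

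The 3 strongest KDM1A members of each list were looked at one by one. With osimertinib the strongest included promoter regions assigned to HNRNPA2B1, an RNA-binding protein gene, at rank 19 of 8882, and to the pseudogene SKP1P1 at rank 54. The nearest vehicle regions were 223500 bp from that of HNRNPA2B1 and 25163 bp from that of SKP1P1, so neither recurred. With vehicle the strongest was an exon region assigned to AC104073.2 at rank 42 of 4731. The nearest osimertinib region, at rank 6935 of 8882, overlapped it slightly, with starts 1923 bp apart. The others were an intergenic region assigned to AC099681.2 at rank 43 and an intron region assigned to RUNDC3B at rank 50. Promoters made up 13.2% (11.2 to 15.5) of the KDM1A members with osimertinib and 12.7% (9.74 to 16.2) with vehicle, against 15.7% of the rest of the list with osimertinib and 15.9% with vehicle.

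KDM1A regions seldom recurred between treatments, on chromosome 7 as elsewhere. Of the members with osimertinib 4.11% (2.96 to 5.53) overlapped a vehicle region, against 5.19% on other chromosomes, and of those with vehicle 9.30% (6.75 to 12.4) overlapped an osimertinib region, against 9.44%. The KDM1A lists thus had the fullest 5 Mb bin in common and few of the single places. Of the H3K9me3 members 27.8% with osimertinib overlapped the other list, against 35.4% on other chromosomes, and 21.1% with vehicle, against 26.7%. For H3K4me3 it was 50.5% with osimertinib, against 52.1% on other chromosomes, and 58.6% with vehicle, against 59.6%. For H3K4me1 it was 29.4% with osimertinib, against 40.1% on other chromosomes, and 23.6% with vehicle, against 26.6%. An H3K9me3 region of the same treatment overlapped 0.701% of the KDM1A members with osimertinib, against 2.11% on other chromosomes, and 1.81% with vehicle, against 2.40%. An H3K4me3 region overlapped 1.20% with osimertinib, against 2.55% on other chromosomes, and 0.227% with vehicle, against 0.862%.

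Of 20 genes that neighbour EGFR 11 had an assigned KDM1A region, 55%, against 22.5% of the 937 coding genes of the chromosome. There were 4 in the osimertinib list only, 2 in the vehicle list only and 5 in both. The 20 genes took 15 KDM1A regions with osimertinib and 8 with vehicle, and none had more than 3 in a list. Of the 5945 genes with a KDM1A region anywhere, 42.9% were in the osimertinib list only, 34.7% in the vehicle list only and 22.3% in both. Those listed with osimertinib only were COBL (an actin nucleator), LANCL2, SEC61G (a subunit of the protein channel of the endoplasmic reticulum) and ZNF713, with best ranks between 2455 and 7417 of 8882. IKZF1, a lymphoid transcription factor gene, and VWC2 were listed with vehicle only. VSTM2A had the strongest region with osimertinib, at -34068 bp from its start and rank 108. Its vehicle region lay elsewhere, at -58202 bp and rank 1589 of 4731. With vehicle LINC01446 had the strongest, at rank 58 and starting at 53803646. Its osimertinib region, at rank 1010, started at 53807447 and did not overlap it. GRB10, an adaptor protein gene, had a region in both lists at nearly the same place, starting at 50680195 with osimertinib and 50681283 with vehicle.

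Of 24 oncogenes and signalling genes on the chromosome, 8 had a KDM1A region in the osimertinib list only, 2 in the vehicle list only and 1 in both. Of the 606 chromosome 7 genes with a KDM1A member, 48.8% were in the osimertinib list only and 23.8% in the vehicle list only. Of the 937 coding genes 22.5% had a KDM1A region in either list, against 11 of these 24. Among the 8 were BRAF, CDK6, ETV1, GNA12, HGF, KMT2C and PIK3CG, and the 2 were KMT2E and MET. CDK6 had 7 regions, the best at rank 1272 and 418 bp from a start in the authors' annotation. That region, 92831500 to 92833499, lies inside the RefSeq gene body, 92604921 to 92836573. BRAF, the RAF kinase of the MAPK cascade, had 3, the best at rank 5182. HGF, the ligand of the MET receptor, had 1 region, at -76687 bp from its start and rank 4429. MET had 1 region with vehicle at rank 2583 of 4731. TNS3, in both lists, ranked 8876 of 8882 with osimertinib and 4649 of 4731 with vehicle, among the weakest. No HOXA gene of 14 had a KDM1A region, and of 39 zinc finger genes 6 had one. Of 8 housekeeping genes 2, HNRNPA2B1 and the replication gene RPA3, were listed with osimertinib only and 1, GUSB, with vehicle only.

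H3K9me3 regions were assigned to 12 of 39 zinc finger genes, 30.8%, and to 45 of the 937 RefSeq coding genes of the chromosome other than EGFR, 4.80%. These genes took 11 of the 245 H3K9me3 members with osimertinib and 23 of the 317 with vehicle, so most members lay elsewhere. Of the 39 zinc finger genes 7 had a region in both lists and 5 in the vehicle list only, and none was in the osimertinib list only. Genome-wide, of 1784 genes with an H3K9me3 region, 26.0% were in the osimertinib list only, 41.5% in the vehicle list only and 32.6% in both. The 7 were ZNF117, ZNF273, ZNF479, ZNF679, ZNF716, ZNF727 and ZNF736, and the 5 were ZNF107, ZNF12, ZNF138, ZNF680 and ZNF713. At the start of ZNF736 the regions began at 64309954 with osimertinib and 64309945 with vehicle, at rank 1010 of 2073 with osimertinib and rank 1331 of 2749 with vehicle. ZNF716 had 3 regions in each list, with a best rank of 1110 with osimertinib and 224 with vehicle. Of the oncogenes and signalling genes ETV1 was the 1 of 24 with a region, in the vehicle list, and 0 of 8 housekeeping genes had one, which is near the share of all coding genes.

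Many H3K9me3 members beside the centromere were assigned to unnamed transcripts. AC128676.1 was given 24 regions with osimertinib and 16 with vehicle, and AC099654.4 was given 10 with osimertinib and 11 with vehicle. They lie on either side of the widest stretch with no region in any list, 58120548 to 60914478, where the arms were divided. The short arm side held 55.5% of the H3K9me3 members with osimertinib and 60.3% with vehicle, and 50.9% of the KDM1A members with osimertinib and 47.6% with vehicle. H3K4me1 with vehicle had 20 regions assigned to AC128676.1 as well, and 9 to AC023141.13, so this mark too was listed beside the gap. Distal intergenic regions made up 56.3% (49.9 to 62.6) of the H3K9me3 members with osimertinib and 54.9% (49.2 to 60.5) with vehicle, against 40.7% of the other regions with osimertinib and 44.4% with vehicle. Few H3K9me3 members met H3K4me3, 2.04% (0.666 to 4.70) with osimertinib and 0.315% (0.00799 to 1.74) with vehicle, against 16.2% with osimertinib and 5.48% with vehicle on other chromosomes.

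The strongest H3K9me3 member with osimertinib was an exception to this. It covered the start of SUMF2 (56063323 to 56065322) at rank 10 of 2073, and the nearest vehicle region was 80875 bp away. H3K4me3 regions lay at almost the same place, starting at 56063257 with osimertinib (rank 1800 of 13285) and at 56063254 with vehicle (rank 1436 of 11621). An H3K4me1 region with vehicle started at 56063320. The other strong H3K9me3 members were assigned to LINC01003 at rank 65 and the pseudogene CCT6P3 at rank 77 with osimertinib, and to AC021218.1 at rank 82, AC128676.1 at rank 94 and AC092175.1 at rank 136 with vehicle. A region of the osimertinib list overlapped that of AC092175.1, with starts 772 bp apart.

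H3K4me3 regions on the same gene lists were mostly in both treatments. Of the 24 oncogenes and signalling genes 15 had a region in both lists and EPHA1 in the vehicle list only. Of 10491 genes with an H3K4me3 region genome-wide, 20.6% were in the osimertinib list only, 24.6% in the vehicle list only and 54.7% in both. Of the EGFR neighbours 9 were in both, among them SEC61G, LANCL2, VOPP1 and SUMF2, and GRB10 and PSPH were in the vehicle list only. The strongest members were promoters of TNRC18 (rank 4 with osimertinib, 6 with vehicle), of ACTB, the beta-actin gene (14 with osimertinib, 25 with vehicle), and of FSCN1, an actin-bundling protein gene (18 with osimertinib, 37 with vehicle). CBX3, a gene for a protein that binds H3K9me3, was at rank 66 with osimertinib and 11 with vehicle, and CLDN4, a tight junction gene, at 93 with osimertinib and 18 with vehicle. HOXA3 was the 1 gene of 14 in the HOXA list with a region, in both lists. Of the 937 coding genes of the chromosome 42.0% had an H3K4me3 region in either list. It was 66.7% of the oncogenes and signalling genes, 55% of the EGFR neighbours and 7.14% of the HOXA list.

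H3K4me1 had 10 of the oncogenes and signalling genes in both lists, CDK6 and RHEB in the osimertinib list only and EPHB4 in the vehicle list only. In either list 13 of these 24 had a region, 54.2%, against 14.5% of the 937 coding genes of the chromosome. Genome-wide, of 5239 genes with a region, 17.8% were in the osimertinib list only, 50.9% in the vehicle list only and 31.2% in both. MET had 2 regions with osimertinib, the best at rank 1626 of 6515, and 1 with vehicle at rank 5791 of 9761. CAV1, the caveolin gene, had 1 with osimertinib and 3 with vehicle. VOPP1, next to EGFR, had 6 with osimertinib and 7 with vehicle, the best at rank 677 with osimertinib and 197 with vehicle. The 3 strongest members with vehicle and 2 of the 3 strongest with osimertinib were all assigned to TNS3, and LINC-PINT was the strongest with osimertinib, at rank 133 of 6515.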

How the data were processed

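The 8 lists hold annotated regions on GRCh38 (hg38), as the authors deposited them. The submitters' processing notes name Bowtie2 2.3.4, HISAT2 and featureCounts, with no role for any of them. The kind of binding assay, osimertinib's dose and duration, the peak caller with its threshold, and any control: none is given in the sources used here. Values of the deposited signal are never negative and their scaling is not stated, so they only ranked regions within a list. The other deposited values are the signed distance in bp to a gene start and a text that repeats the width 2000, per the file headers and values. Lists were not pooled. The authors' own annotation classes and assigned genes were used.

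Regions were placed by their middle. Intervals are exact binomial ones at 95%. Those of the edge ratios cover only the split of the target's regions, with the share of the H3K4 regions taken as fixed. The search for edges maximised the binomial likelihood gain and found both ends of 89 of 100 planted blocks of 10 Mb within 1 Mb on simulated data. The simulated counts had flat rates outside the block and a flat reference. The real counts are uneven, so this checks the search and does not give the accuracy of the edges reported. Overlaps needed 1 bp and equalled those of bedtools 2.31.1 in 8 of 8 cases. Symbols of genes, coding genes and promoter windows came from RefSeq and gene name tables. Named genes were those of the lists, the 3 strongest members of each list, the genes with most regions in the crowded bins and those at edges. Some of these genes are not reported here. Genes of the blocks and long genes were named in addition. The members and lists were chosen with earlier results of these data known, and the windows without H3K4 regions, the stretches and the blocks were added after seeing the data. Tools were Python 3.11.15, pandas 2.3.3, scipy 1.17.1 and, for figures, matplotlib 3.10.9.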

Additional observations from a re-analysis of the deposited data

How the results depend on the processing

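Of 190 values recomputed under alternatives 128 lay within the 95% interval of the value reported (for bins, overlapped the reported bin) and 62 did not. All 32 values of the short arm share were among the 128. Some of the 128 could not move. Equal numbers of the strongest left the shorter list of each target unchanged. Including EGFR-assigned regions changed nothing in a list that had none, those of KDM1A with vehicle and H3K9me3 with osimertinib. The cause of the shifts was not tested, other than that wider flanks, stricter overlaps and fewer regions change a share by construction. No paired analysis was possible because each target and treatment had 1 library.

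The chromosome 7 share of KDM1A with osimertinib was 10.4% over equal numbers of the strongest regions. Without chromosome Y and the first 50 Mb of chromosome 5 it was 14.6% with osimertinib and 10.7% with vehicle, and that of H3K9me3 with vehicle was 13.5%. Outside promoters the H3K4me3 share was 6.38% with osimertinib and 6.06% with vehicle, and that of H3K4me1 with vehicle 4.39%.

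Within 10 Mb of EGFR lay 26.5% of KDM1A members with osimertinib and 20.6% with vehicle, 83.7% with osimertinib and 74.4% with vehicle of H3K9me3, 5.11% with osimertinib and 6.64% with vehicle of H3K4me3, and 26.4% with osimertinib and 26.7% with vehicle of H3K4me1. Within 2 Mb lay 15.8% of KDM1A members with osimertinib and 8.84% with vehicle, 26.9% with osimertinib and 30.6% with vehicle of H3K9me3, and 4.01% with osimertinib and 3.11% with vehicle of H3K4me1. Within 5 Mb the share was 26.6% for KDM1A with osimertinib and 51.4% for H3K9me3 with vehicle over equal numbers of the strongest, and 7.46% for H3K4me3 with vehicle outside promoters. With EGFR-assigned regions included it was 4.87% for H3K4me3 with osimertinib, and for H3K4me1 15.96% with osimertinib and 10.4% with vehicle. The fullest H3K4me3 bin began at 100 Mb with osimertinib in bins of 2 Mb, and at 0 Mb with vehicle in bins of 10 Mb.

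With 1000 bp required, the overlap of treatments was 2.40% for KDM1A with osimertinib and 5.44% with vehicle, 19.2% with osimertinib and 14.8% with vehicle for H3K9me3, 41.5% with osimertinib and 48.4% with vehicle for H3K4me3, and 18.4% with osimertinib and 14.2% with vehicle for H3K4me1. Within 1 kb it was 33.9% for H3K9me3 with osimertinib and 27.1% with vehicle, 56.4% with osimertinib and 67.0% with vehicle for H3K4me3, and 38.8% with osimertinib and 30.1% with vehicle for H3K4me1.

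For KDM1A with osimertinib the log2 odds ratio of the edges was 2.99 against H3K4me3 alone (7 to 98 Mb), 3.50 against H3K4me1 alone, 2.38 by chromosome length, 2.53 on a 5 Mb grid, 2.43 with EGFR included and 4.91 without the crowded stretches. With vehicle it was 5.43 against H3K4me1 alone (78 to 98 Mb), 4.13 against H3K4 regions outside promoters (77 to 98 Mb), 1.41 by length and 4.15 without the crowded stretches. For H3K9me3 with osimertinib it was 8.19 against H3K4me1 alone, 6.56 outside promoters, 5.84 by length and 6.83 on the 5 Mb grid. With vehicle it was 5.51 against H3K4me3 alone and 4.45 outside promoters. The KDM1A step was 2 times with osimertinib and 1.82 times with vehicle in windows with no start or end of a coding gene, and 8 times with osimertinib and 4 times with vehicle in windows with no part of one, a definition added after the first result was seen; the 147 Mb window alone makes this difference. Region numbers limit the precision: H3K9me3 had 4 members from 72 to 97 Mb with osimertinib and 10 with vehicle.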
